A study of Homo sapiens with 12 samples.

Results

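The lymphoid homing and confinement receptors are 9 genes that place B cells in, or hold them within, the compartments of lymphoid tissue. They comprise the chemokine receptors CXCR4, CXCR5 and CCR7, the oxysterol receptor GPR183, the receptor GPR18, the sphingosine-1-phosphate (S1P) receptors S1PR1, S1PR2 and S1PR4, and the G protein subunit GNA13. Members were taken by gene symbol from the GENCODE annotation, and all 9 were found among the 60675 gene identifiers counted in every library. RNA was sequenced from 2 human diffuse large B-cell lymphoma (DLBCL) cell lines, SUDHL6 and SUDHL16, each as the parental line and as the venetoclax-resistant line derived from it, with 3 libraries in each of the 4 groups. Venetoclax (ABT-199) is a small-molecule inhibitor of the anti-apoptotic protein BCL2. Each resistant line was raised from its parental line by long culture in rising venetoclax concentrations and was kept in the drug. Cells of both kinds were put into fresh medium for experiments, and whether it held venetoclax is not given in the sources used here, so acquired resistance and exposure to the drug cannot be told apart. SUDHL6 and SUDHL16 libraries were made with different kits and run on different Illumina instruments, and levels of the lines are therefore set side by side without a test. The labels do not say whether the 3 libraries of a group came from separate cultures, so p-values measure the spread between these libraries, which may be technical. In bulk RNA, fewer cells expressing a gene and less RNA per cell cannot be told apart.

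Naive B cells enter the follicle along a CXCL13 gradient sensed by CXCR5, while CCR7 and its ligands CCL19 and CCL21 draw them towards the T cell zone and GPR183 guides them along oxysterol gradients to the follicle's outer and interfollicular parts. Germinal centre B cells keep CXCR5, use CXCR4 to reach the CXCL12-rich dark zone, and lower GPR183, CCR7 and the egress receptor S1PR1. They are confined by S1PR2 and the purinergic receptor family member P2RY8, which signal through GNA13 and the exchange factor ARHGEF1 to restrain migration, and this arm is recurrently mutated in germinal centre-type DLBCL.

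The SUDHL6 libraries held 33992784 to 40885665 counts and the SUDHL16 libraries 14335460 to 22068221, apart from 1 parental SUDHL16 library, CE-26, with 4131927. In CE-26, 31.9% of counts fell on identifiers that GENCODE 44 does not hold, against 1.61% to 5.06% in the other SUDHL16 libraries, and 34938 genes had a count against 20896 to 24655. The B-lineage markers MS4A1, CD79A, CD79B, PAX5 and CD22 were detected in every library, with summed levels of 3828 to 4020 CPM (counts scaled to 1000000 per library) in SUDHL6, 3349 to 3761 CPM in the other SUDHL16 libraries and 2254 CPM in CE-26. The summed level of 6 endothelial and stromal markers was 37.9 CPM in CE-26 and at most 1.66 CPM in the other 5 SUDHL16 libraries, and that of 6 myeloid and dendritic markers was 10.7 CPM against 3.67 to 6.30 CPM in resistant libraries, where ITGAX led, and at most 1.43 CPM in the other parental libraries. ITGAX (62, 68 and 93 counts against 0 and 3) and FCER1G (18, 10 and 55 counts against 0 and 0) were called higher in resistant SUDHL16 when CE-26 was left out (adjusted p of 0.0108 and 0.0346, edgeR). CE-26 had 11 counts of ITGAX and 2 of FCER1G. With that library, ITGAX was not called (adjusted p = 0.562, edgeR) and FCER1G was too low to be tested. CD14 had 8 counts in 1 resistant library, CLEC10A was at 0 in all SUDHL16 libraries, and CSF1R and LYZ were at 0 in all resistant ones. Of the endothelial and stromal markers, PECAM1 (12, 16 and 39 counts against 0 and 0) was also called higher without CE-26 (adjusted p = 0.0302, edgeR). It was not called with CE-26, where it had 27 counts. In resistant SUDHL16, COL1A1 had 4 counts and PDGFRB 2 counts, each in 1 library, and CDH5, VWF and COL1A2 were at 0. The part of other cell types in the results was not tested. Where a SUDHL16 change of the 9 genes or of a named pathway gene is given, it is therefore given with and without CE-26.

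A gene was called when its adjusted p was under 0.05 and its level moved by 1.5-fold or more (edgeR quasi-likelihood test within each line, Benjamini-Hochberg adjustment over all genes tested). In SUDHL6, 8 of the 9 genes had enough counts to be tested and 4 were called: GPR18 was higher in resistant cells, and CCR7, GPR183 and S1PR1 were lower. Over all 16662 genes tested in that line, 8.96% were called, 4.31% higher and 4.65% lower. In SUDHL16, 5 of the 9 were tested and 2 were called, CXCR5 and GPR18, both higher, where 5.30% of 15708 genes were called and 3.20% were called higher. The same 2 of 5 were called without CE-26, where 10.0% of genes were called. Tested genes had passed a filter on low counts, which a gene can pass through its higher group alone, so these counts do not describe all 9 genes. S1PR2 and GNA13, the confining receptor and its G protein, were called in neither line. The SUDHL6 calls rest on the spread within that line: in a single edgeR fit of all 12 libraries, where both lines share 1 estimate of the spread, GPR18 (adjusted p = 0.394), CCR7 and GPR183 (adjusted p = 1 for each) were not called in SUDHL6, and S1PR1 was not tested.

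**Figure D1:**
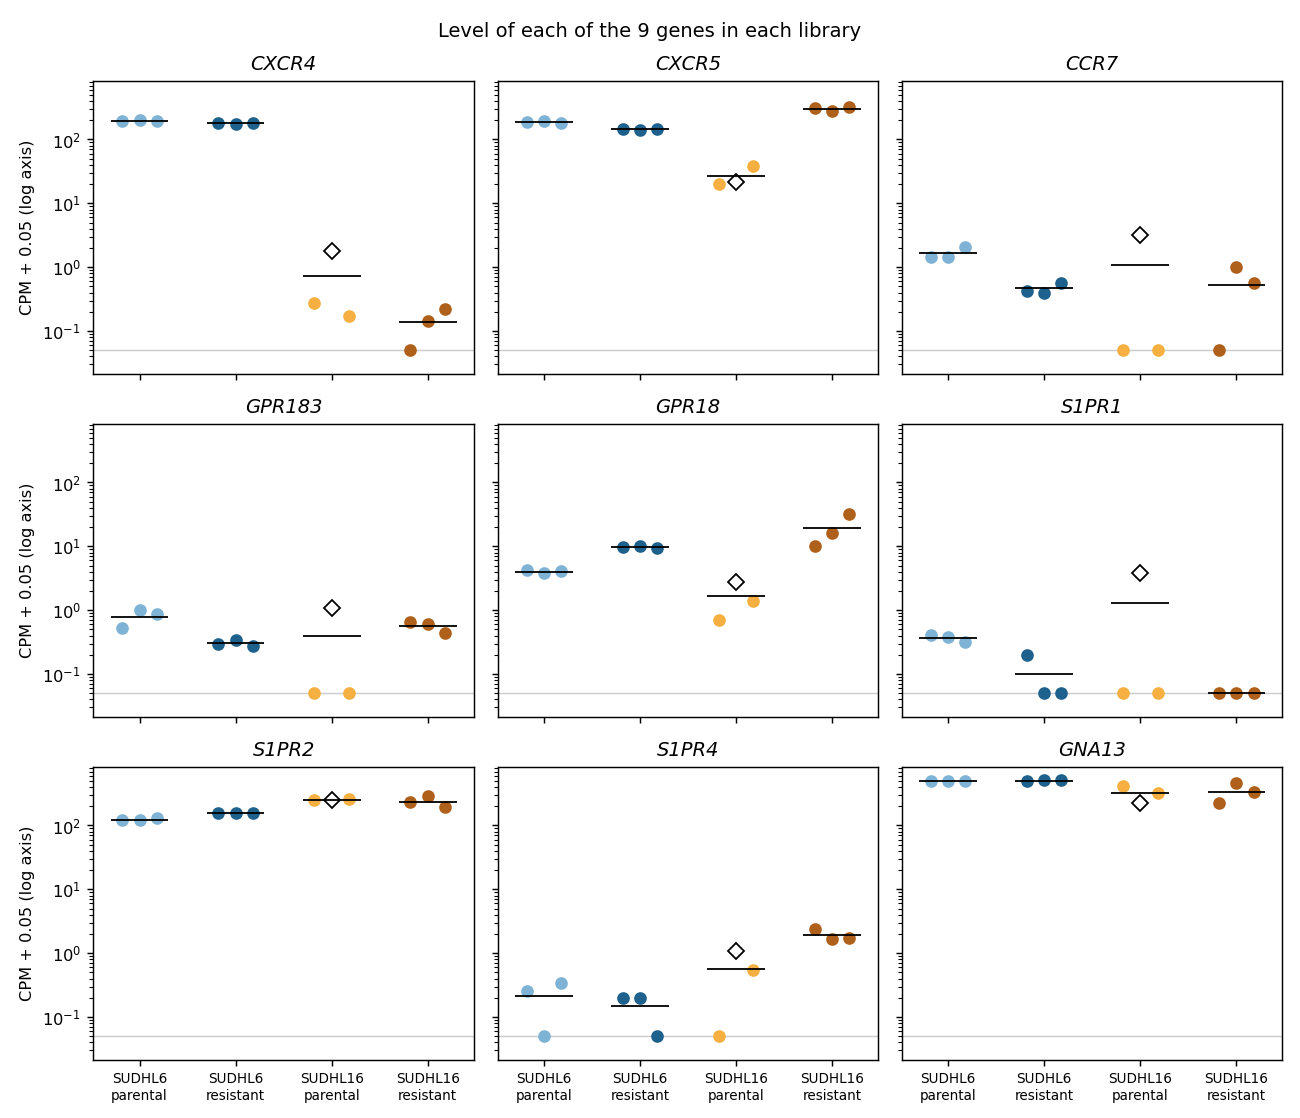
Level of each gene in each of the 12 libraries, as CPM plus 0.05 on a logarithmic axis that all panels share; points are libraries, the open diamond is CE-26, the horizontal line is the group mean and the grey line marks a count of 0. CXCR5 and GPR18 rise from parental to resistant SUDHL16 with no overlap, CXCR4 is near 0 in all SUDHL16 libraries, and in CCR7, GPR183 and S1PR1 the parental SUDHL16 mean comes from CE-26 alone.

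CXCR5, the receptor for the follicular chemokine CXCL13, had the largest called rise in CPM among the 9 genes. It lies on chromosome 11 (GRCh38, chr11:118883892-118897787, plus strand), with 2 exons. In SUDHL16 its level was 20.1, 21.7 and 38.2 CPM in the parental libraries, of which the second is CE-26, and 314.2, 278.8 and 320.1 CPM in the resistant libraries. The lowest resistant library stood far above the highest parental one, and CE-26 lay between the other parental libraries. The rise was 11.4-fold (log2 fold change 3.50 ± 0.33 SE, adjusted p = 0.00102, edgeR), and 10.5-fold without CE-26 (3.40 ± 0.33, adjusted p = 5.93e-04). In SUDHL6 the level was 186.0, 192.0 and 182.2 CPM in parental and 147.3, 142.6 and 145.6 CPM in resistant cells. The SUDHL6 groups did not overlap and resistant cells were lower, but the change of 1.29-fold (log2 fold change -0.36 ± 0.03, adjusted p = 2.43e-07, edgeR) was under the 1.5-fold limit. Set side by side, resistant SUDHL16 held more CXCR5 CPM than either SUDHL6 group and parental SUDHL16 held less, a comparison across kits that was not tested.

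The RefSeq promoter of CXCR5 is shown because this gene had the largest rise in CPM, and those of GPR18 and GPR183 because these neighbouring genes moved in opposite directions in SUDHL6. Each window runs from 250 bases before to 50 after the RefSeq start (GRCh38.p14), 5′ to 3′ on the gene's strand, with matches to the searched motifs in capitals. CXCR5 is read from chr11:118893142-118893441 on the plus strand, GPR18 from chr13:99258330-99258629 on the minus strand and GPR183 from chr13:99307350-99307649 on the minus strand. The RefSeq start of CXCR5 lies 9500 bases from the GENCODE gene start and that of GPR18 3365 bases from it, whereas the starts of GPR183 coincide. The windows of CXCR5 and GPR18 thus lie inside their GENCODE genes, that of CXCR5 in the intron between its 2 exons, and are not the promoters at the GENCODE starts.
CXCR5: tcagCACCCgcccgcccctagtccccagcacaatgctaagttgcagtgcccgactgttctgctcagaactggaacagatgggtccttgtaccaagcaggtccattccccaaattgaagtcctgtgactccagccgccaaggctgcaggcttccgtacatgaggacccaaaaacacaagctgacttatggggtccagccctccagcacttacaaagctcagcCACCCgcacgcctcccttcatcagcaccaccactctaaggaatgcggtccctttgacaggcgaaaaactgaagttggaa
GPR18: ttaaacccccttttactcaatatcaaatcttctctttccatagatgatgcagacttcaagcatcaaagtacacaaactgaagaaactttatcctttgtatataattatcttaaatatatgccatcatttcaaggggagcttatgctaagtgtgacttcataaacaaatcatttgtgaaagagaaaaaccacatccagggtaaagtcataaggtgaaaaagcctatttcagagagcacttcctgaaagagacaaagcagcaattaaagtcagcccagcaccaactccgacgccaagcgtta
GPR183: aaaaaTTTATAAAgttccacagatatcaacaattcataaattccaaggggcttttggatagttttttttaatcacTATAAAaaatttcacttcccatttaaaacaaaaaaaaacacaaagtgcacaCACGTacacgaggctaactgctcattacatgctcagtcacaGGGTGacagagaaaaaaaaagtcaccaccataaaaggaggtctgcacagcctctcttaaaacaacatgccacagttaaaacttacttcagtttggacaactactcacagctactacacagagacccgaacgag
The motifs searched on both strands were the KLF box CACCC, the hypoxia response core ACGTG, the forkhead element GTAAACA, the octamer ATGCAAAT, the GAS element TTCNNNGAA, the CRE TGACGTCA and the TATA box TATAAA. The CXCR5 window held 2 matches to the KLF box, a motif found in 59.9% of all 35116 promoters of this length. GPR183 held 1 KLF box, 1 hypoxia response core, which 21.4% of promoters hold, and 3 matches to the TATA box, 2 of which overlap on opposite strands, where 11.5% of promoters hold at least 1. The GPR18 window held none of the 7 motifs. RefSeq promoter sequences were found for 8 of the 9 genes, and CCR7 was not matched.

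The CXCR5 count is tied to its neighbour BCL9L, a coactivator of Wnt signalling encoded on the opposite strand. Of the 4293 exon bases of CXCR5, 3913 (91.1%) are also exon of BCL9L. By the study's methods, SUDHL16 libraries were made with a stranded total RNA kit from Illumina and SUDHL6 libraries with a NEBNext Ultra II kit. The counting tool and its strand setting are not given in the sources used here. Reads of the overlap could therefore belong to either gene if strand was not used in counting. BCL9L stood at 3.69, 19.6 and 6.77 CPM in parental SUDHL16 and at 51.3, 48.7 and 93.3 CPM in the resistant line. It was also called higher in SUDHL16, by 7.01-fold (log2 fold change 2.81 ± 0.59, adjusted p = 0.0325, edgeR) and by 12.4-fold without CE-26 (3.64 ± 0.43, adjusted p = 0.00134), and its call was lost when any 1 library other than CE-26 was left out. In every library BCL9L held fewer CPM than CXCR5. In SUDHL6, BCL9L stood at 9.40, 8.97 and 15.3 CPM in parental and 14.3, 13.6 and 10.2 CPM in resistant cells, and the groups overlapped (log2 fold change 0.17 ± 0.18, adjusted p = 0.501, edgeR). The part of either gene's reads in the other's count was not tested. The lncRNA ENSG00000245869, which lies within CXCR5 on the other strand and shares no exon base with it, was not called in SUDHL6 (log2 fold change -0.05 ± 0.25, adjusted p = 0.903, edgeR) and was too low to be tested in SUDHL16. Within 1 Mb of CXCR5, 4 of 31 other protein-coding genes tested in SUDHL16 were called, all higher (BCL9L, CD3E, NLRX1 and USP2), and the median log2 fold change of the 31 was 0.14. CD3E, a T cell receptor component, stood at 1.16, 4.48 (CE-26) and 1.30 CPM in parental and 13.1, 13.4 and 10.9 CPM in resistant SUDHL16, a rise of 6.01-fold with CE-26 and 10.2-fold without it. The summed level of 6 T and NK cell markers, CD3E among them, was 11.9 to 13.7 CPM in resistant SUDHL16, 16.5 CPM in CE-26, and 1.49 and 2.86 CPM in the other parental libraries. CD3E held most of that sum in the resistant libraries, whereas in CE-26 CD3G (5.51 CPM) and CD8A (4.82 CPM) stood above it. CD3G had 0, 8 and 17 counts in the resistant libraries and 6, 16 (CE-26) and 17 in the parental ones, CD3D and CD2 were at 0 in all 3 resistant libraries, and CD8A and NKG7 were at 0 in 2 of the 3.

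**Figure D2:**
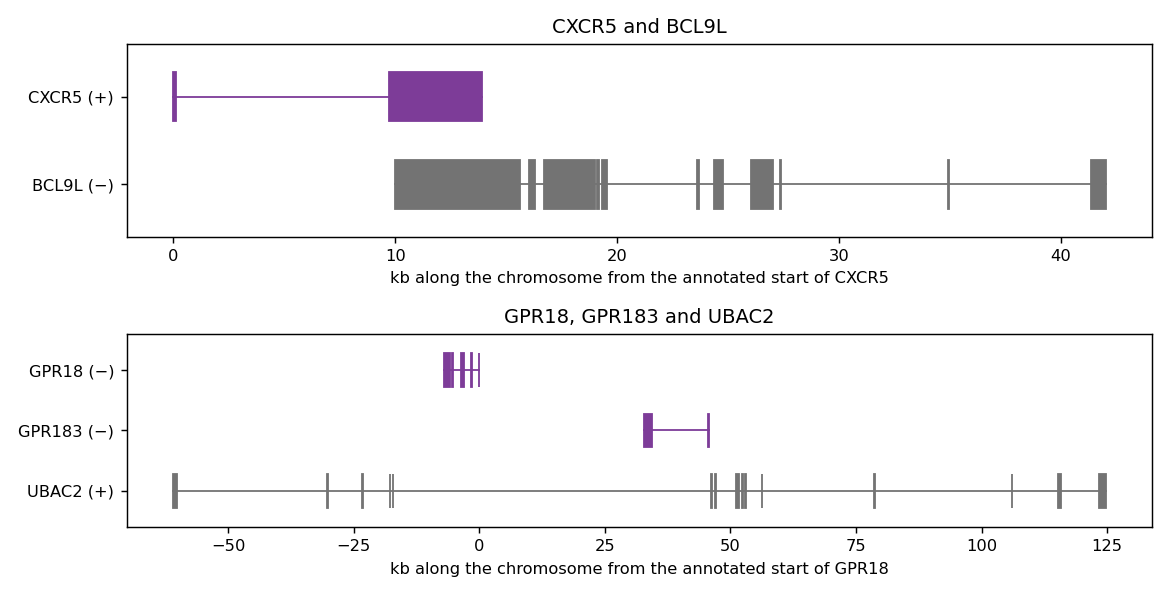
Annotated exons (boxes) and introns (lines) of CXCR5 and BCL9L above, and of GPR18, GPR183 and UBAC2 below, in kb along the chromosome from the annotated start of CXCR5 or GPR18, with each gene's strand in brackets. The last exon of CXCR5 lies largely on exon of BCL9L, while GPR18 and GPR183 share no exon base with UBAC2.

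CXCR4, the CXCL12 receptor that marks dark-zone positioning, was abundant in SUDHL6 and close to the limit of detection in SUDHL16. It lies at chr2:136114349-136119177 on the minus strand. Its SUDHL6 level was 193.3, 201.5 and 196.4 CPM in parental and 180.7, 175.5 and 183.5 CPM in resistant cells. Each resistant library was below each parental one, by 1.10-fold (log2 fold change -0.13 ± 0.03, adjusted p = 0.00114, edgeR), which is under the 1.5-fold limit. In SUDHL16 the counts were 4, 5 (CE-26) and 2 in parental and 0, 2 and 4 in resistant libraries, or at most 1.72 CPM in CE-26 and 0.22 CPM elsewhere. CXCR4 was too low there to be tested, and the ratio of summed counts scaled to library size, resistant to parental, was 0.340 (95% exact conditional interval 0.103 to 1.002, counting error only). Without CE-26, which holds 5 of the 11 parental counts, it was 0.574 (0.153 to 2.15).

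CCR7, which directs lymphocytes towards the T cell zone, was lower in resistant SUDHL6. The gene lies at chr17:40553769-40565472 on the minus strand. In parental SUDHL6 it stood at 1.38, 1.42 and 2.04 CPM, from 47, 48 and 83 counts. In resistant SUDHL6 it stood at 0.373, 0.347 and 0.523 CPM, from 15, 14 and 19 counts. The groups did not overlap and the fall was 3.91-fold (log2 fold change -1.97 ± 0.27, adjusted p = 8.80e-05, edgeR). In SUDHL16 the parental counts were 0, 9 and 0, with all 9 in CE-26, and the resistant counts were 0, 20 and 12. The ratio of scaled summed counts was 2.21 (95% interval 1.03 to 5.27), whereas the mean of the 3 libraries was higher in parental (1.03 CPM) than in resistant cells (0.484 CPM). Without CE-26 no parental count remained, and the scaled resistant count stood 6.12-fold above the limit of 3 counts over the parental group. That figure leaves out the error of the resistant count and the spread between libraries, and 1 resistant library was also at 0.

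GPR183 (EBI2), the oxysterol receptor that B cells lower on entering the germinal centre, also fell in SUDHL6. It lies at chr13:99294539-99307399 on the minus strand. Parental SUDHL6 held 0.47, 0.944 and 0.811 CPM (16, 32 and 33 counts) and resistant SUDHL6 held 0.249, 0.297 and 0.22 CPM (10, 12 and 8 counts). All resistant libraries lay below all parental ones, by 2.88-fold (log2 fold change -1.53 ± 0.36, adjusted p = 0.00511, edgeR). A test against a 1.5-fold change in place of a change of 0 did not call it (adjusted p = 0.103, edgeR glmTreat). In SUDHL16 the parental counts were 0, 3 and 0, again all in CE-26, against 9, 12 and 9 in the resistant libraries. The resistant line had 0.603, 0.565 and 0.383 CPM. The ratio of scaled summed counts was 6.23 (95% interval 1.94 to 31.9). Without CE-26 the scaled resistant count stood 5.74-fold above the limit of 3 counts over the parental group. That figure again leaves out the error of the resistant count and the spread between libraries. The filter left GPR183 out of the SUDHL16 test with and without CE-26.

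GPR18, a receptor expressed by several lymphocyte types whose ligand is debated, was the 1 gene of the 9 called in both lines, and it was higher in each resistant line. It lies at chr13:99254732-99261744 on the minus strand, with its start 32.8 kb from the near end of GPR183. SUDHL6 levels were 4.14, 3.72 and 4.01 CPM in parental and 9.54, 10.1 and 9.53 CPM in resistant cells. Resistant libraries were 2.46-fold higher with no overlap (log2 fold change 1.30 ± 0.09, adjusted p = 3.38e-07, edgeR). SUDHL16 levels were 0.661, 2.76 (CE-26) and 1.37 CPM in parental and 9.98, 16.2 and 31.99 CPM in resistant cells. These groups did not overlap either, the resistant libraries spread over a wide range, and the rise was 13.9-fold (log2 fold change 3.80 ± 0.67, adjusted p = 0.0155, edgeR). It was 19.3-fold without CE-26 (4.27 ± 0.64, adjusted p = 0.00424), but the call was lost without the second resistant library (adjusted p = 0.0710) or without the third (adjusted p = 0.0899).

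Both chromosome 13 members lie within UBAC2, an endoplasmic reticulum protein gene on the opposite strand, and share no exon base with it. UBAC2 stood at 61.6, 57.1 and 59.6 CPM in parental and 43.0, 40.8 and 43.9 CPM in resistant SUDHL6, a fall of 1.40-fold that was under the fold limit (log2 fold change -0.48 ± 0.04, adjusted p = 8.60e-07, edgeR). The 7 protein-coding genes tested within 1 Mb of GPR18 and GPR183, other than these, were all lower in resistant SUDHL6, with log2 fold changes of -0.95 to -0.14 and a median of -0.49. Of these, STK24 and TM9SF2 were called. GPR18 thus rose in SUDHL6 where all 7 tested neighbours had lower values. The estimate for GPR183 (-1.53 ± 0.36, from low counts) was below that of each neighbour, the lowest being STK24 (-0.95 ± 0.03). Whether GPR183 fell by more than its neighbours was not tested. In SUDHL16, 5 of the 7 were higher, their median was 0.16 and none was called. UBAC2 there stood at 15.3, 43.1 (CE-26) and 23.6 CPM in parental and 37.6, 35.3 and 63.7 CPM in resistant libraries (log2 fold change 0.77 ± 0.41, adjusted p = 0.359, edgeR), and without CE-26 the change was 1.24 ± 0.34 (adjusted p = 0.0559).

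**Figure D3:**
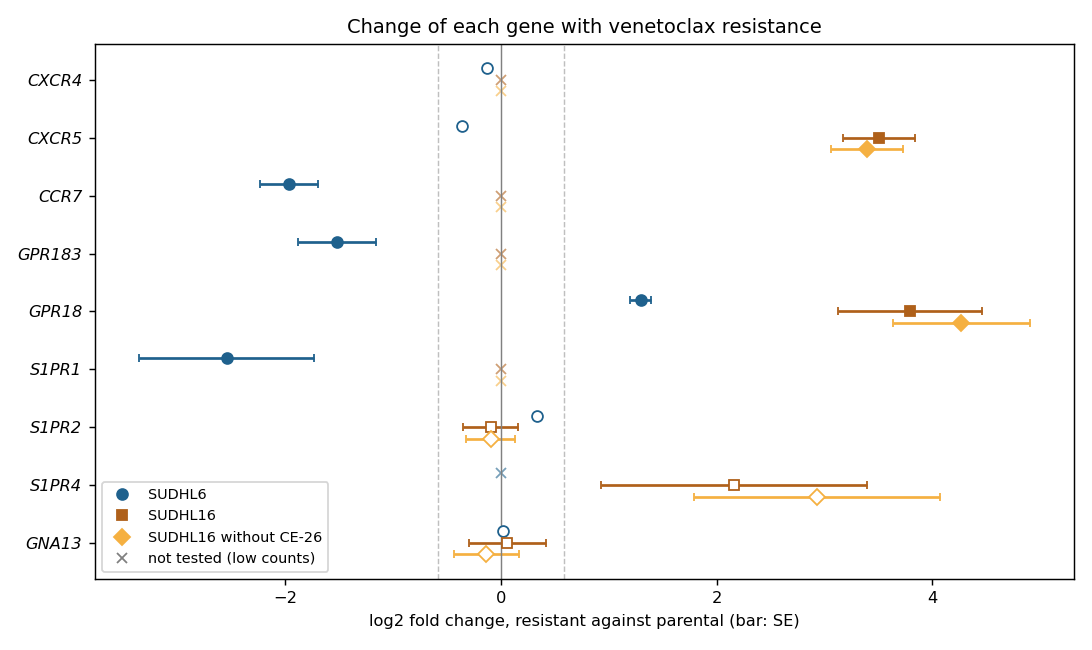
Log2 fold change of each gene, resistant against parental, in SUDHL6 (circles), SUDHL16 (squares) and SUDHL16 without CE-26 (diamonds). Bars are SE, filled symbols passed adjusted p under 0.05 and 1.5-fold (dashed lines), and crosses mark genes too low to be tested. GPR18 lies to the right in both lines, CXCR5 to the right in SUDHL16 and at -0.36 in SUDHL6, and GNA13 near 0 throughout.

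S1PR2, which confines germinal centre B cells, was among the most abundant of the 9 in both lines. It lies at chr19:10221433-10231331 on the minus strand. In SUDHL6 it stood at 119.9, 121.9 and 129.0 CPM in parental and 154.0, 158.8 and 154.0 CPM in resistant cells. Every resistant library was above every parental one, by 1.26-fold (log2 fold change 0.33 ± 0.03, adjusted p = 2.29e-06, edgeR), under the fold limit. In SUDHL16 it stood at 255.0, 249.0 and 255.4 CPM in parental and 232.7, 285.7 and 192.9 CPM in resistant cells. Those groups overlapped and the change was within the spread between libraries (log2 fold change -0.09 ± 0.25, adjusted p = 0.889, edgeR, and -0.10 ± 0.23 without CE-26); its sign turned under 2 other processing settings and without 1 library. S1PR2 shares 83 exon bases with DNMT1 on the same strand, and DNMT1, the maintenance DNA methyltransferase, stood at 661.6 to 676.1 CPM over all SUDHL6 libraries and 376.6 to 647.0 CPM over all SUDHL16 libraries. The microRNA gene MIR4322, on the other strand within S1PR2, was not called in SUDHL6 (log2 fold change 0.13 ± 0.38) and was not tested in SUDHL16.

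GNA13, the G alpha subunit through which S1PR2 and P2RY8 act, was the most abundant of the 9 in SUDHL6. It lies at chr17:65009289-65056740 on the minus strand. SUDHL6 levels were 499.1, 502.4 and 501.1 CPM in parental and 502.9, 506.5 and 509.1 CPM in resistant cells. The 6 libraries spanned a narrow range and the log2 fold change was 0.02 ± 0.02 (adjusted p = 0.497, edgeR). SUDHL16 levels were 421.4, 226.3 (CE-26) and 322.1 CPM in parental and 226.2, 454.4 and 330.6 CPM in resistant cells. The groups overlapped, and the log2 fold change was 0.06 ± 0.35 (adjusted p = 0.951, edgeR) and -0.14 ± 0.30 without CE-26, a change of sign. The lncRNA ENSG00000266598 that lies within GNA13 on the other strand was too low to be tested in either line.

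S1PR1, the receptor that lymphocytes use to leave tissue towards S1P in blood and lymph, was near the limit of detection everywhere. It lies at chr1:101236865-101243713 on the plus strand. Parental SUDHL6 held 12, 11 and 11 counts (0.352, 0.325 and 0.270 CPM) and resistant SUDHL6 held 6, 0 and 0 counts. The 6 counts of 1 resistant library gave 0.149 CPM, below each parental library, and a count of 0 allows up to 0.0743 CPM and 0.0826 CPM in the others. The fall was called (log2 fold change -2.54 ± 0.81, adjusted p = 0.0266, edgeR), and the ratio of scaled summed counts was 0.164 (95% interval 0.0563 to 0.395). The call was lost without parental replicate 1 or 2 or resistant replicate 2 or 3, with adjusted p between 0.0658 and 0.0860, and without the filter on low counts (adjusted p = 0.101). In SUDHL16, all 11 S1PR1 counts were in CE-26, where it stood at 3.79 CPM, and a count of 0 allows 0.128 to 0.201 CPM in each of the other 5 libraries.

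S1PR4, an S1P receptor of lymphocytes and other blood cells, was low in all groups and had its highest levels in resistant SUDHL16. It lies at chr19:3172346-3180332 on the plus strand. In SUDHL16 it stood at 0, 1.03 (CE-26) and 0.497 CPM in parental and 2.34, 1.65 and 1.66 CPM in resistant cells, from 0, 3 and 8 against 35, 35 and 39 counts. Each resistant library was above each parental one, but the change did not pass the test (log2 fold change 2.16 ± 1.23, adjusted p = 0.396, edgeR), nor without CE-26 (2.93 ± 1.14, adjusted p = 0.161). In SUDHL6 the counts were 7, 0 and 12 in parental and 6, 6 and 0 in resistant libraries, too low to be tested, and the groups overlapped. The lncRNA ENSG00000289471, which overlaps S1PR4 on the other strand, was not analysed here.

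The 3 genes with counts in CE-26 but in no other parental SUDHL16 library were CCR7, GPR183 and S1PR1, and CXCR4, GPR18 and S1PR4 had their highest parental level there. CE-26 was also the library with 5 of 6 endothelial and stromal markers detected, where the other SUDHL16 libraries had at most 2. Whether these counts come from the same source as the member counts in CE-26 was not tested.

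The lines differed in the change of 2 of the 8 genes tested (interaction of line and resistance, edgeR, all 12 libraries), where 7.16% of 19621 genes passed. CXCR4, CCR7 and GPR183 were too low to be tested within SUDHL16, and S1PR4 within SUDHL6. A gene can pass the low-count filter of this fit through its higher groups alone, so the 2 of 8 does not describe all 9 genes. The change of CXCR5 was higher in SUDHL16 than in SUDHL6 by 3.89 ± 0.32 on the log2 scale (adjusted p = 3.03e-05, edgeR). That of GPR18 was higher by 2.62 ± 0.64 (adjusted p = 0.0293, edgeR), a call that did not hold when any of 7 libraries, among them all 6 of SUDHL6, was left out. Without CE-26, 4 of 9 passed where 14.0% of genes did, with CCR7 (adjusted p = 0.0185, edgeR) and GPR183 (adjusted p = 0.00144, edgeR) added. With CE-26 neither had passed (adjusted p of 0.758 and 0.302 in turn, edgeR). The remaining parental SUDHL16 libraries hold no count of CCR7 or GPR183. The size of their differences is therefore not given, and no conclusion is drawn from their passing. Both genes passed the low-count filter there only through other groups, as did S1PR1, which had no count in the remaining SUDHL16 libraries. For CXCR4, S1PR2, S1PR4 and GNA13 the difference did not pass (adjusted p of 0.377, 0.336, 0.413 and 0.993 in turn, edgeR). CXCR4 had 11 parental and 6 resistant counts in SUDHL16, and S1PR4 had 19 and 12 in SUDHL6. These counts are too few to decide whether their changes differ.

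Levels of the 9 genes were compared with each other per kb of annotated exon. In parental SUDHL6 the order of levels was GNA13 with 77.9 ± 0.26 (SD, n = 3), CXCR4 with 67.9 ± 1.43, CXCR5 with 43.5 ± 1.15 and S1PR2 with 33.9 ± 1.32 CPM per kb, and no neighbours in this order overlapped. GPR18 followed with 1.98 ± 0.11 and CCR7 with 0.643 ± 0.15 CPM per kb, and GPR183, S1PR4 and S1PR1 lay between 0.440 and 0.0605. In resistant SUDHL6, S1PR2 (42.7 ± 0.77) stood above CXCR5 (33.8 ± 0.55 CPM per kb), so these genes exchanged places. CCR7 and GPR183 overlapped in both groups, as did S1PR4 and S1PR1. In parental SUDHL16, S1PR2 came first with 69.5 ± 0.99, then GNA13 with 50.3 ± 15.2 and CXCR5 with 6.21 ± 2.34 CPM per kb, without overlap, while GPR18 and the 5 genes after it overlapped in order. In resistant SUDHL16, CXCR5 was first with 70.9 ± 5.196 CPM per kb and overlapped S1PR2 with 65.1 ± 12.8, which overlapped GNA13 with 52.4 ± 17.8. Among protein-coding genes with a count, CXCR5 stood at percentile 66.2 of levels per kb in parental and 97.9 in resistant SUDHL16, and at 94.7 and 93.1 in the SUDHL6 groups. CXCR4 stood at percentile 97.1 in parental SUDHL6 and 15.4 in parental SUDHL16. The parental SUDHL16 order and percentiles include CE-26. Without it the means were 70.05 for S1PR2, 57.8 for GNA13, 6.79 for CXCR5 and 0.0594 CPM per kb for CXCR4, and CCR7, GPR183 and S1PR1 were at 0. Protein-coding genes with a count numbered 17533 in parental and 13850 in resistant SUDHL16, so percentiles of these groups have unlike bases.

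Beside the 9 genes, a list of 59 other genes of these pathways was examined, comprising ligands and their enzymes, other positioning receptors, signalling genes, receptor desensitisation and transcription factors of the receptors. In each line 40 of the 59 were tested and 3 were called, which is 2 higher and 1 lower in SUDHL6 and 3 higher in SUDHL16, where the same 3 (ACKR3, HIF1A and RGS16) were called without CE-26. In the single fit of all 12 libraries the 3 SUDHL6 calls, SPNS2, CCR10 and CD69, were lost (adjusted p of 1, 0.526 and 0.888, edgeR). The median log2 fold change of the tested list genes was 0.08 in SUDHL6 and 0.27 in SUDHL16, beside 0.00 and -0.02 over all genes tested. These counts are near the share called over all genes, given above.

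Of the 15 ligand and ligand metabolism genes, 8 were tested in SUDHL6 and 1 was called, SPNS2, which exports S1P from cells. It stood at 5.199, 3.10 and 4.18 CPM in parental and 7.61, 7.03 and 6.77 CPM in resistant SUDHL6, without overlap (log2 fold change 0.78 ± 0.15, adjusted p = 0.00151, edgeR). In SUDHL16, 5 of the 15 were tested and none was called, with 1 at an unadjusted p under 0.05. CXCL13, the ligand of CXCR5, had at most 6 counts in any library.

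Of 15 other positioning receptors and scavengers, 7 were tested in SUDHL6 and 2 called. CCR10, the receptor for the epithelial chemokines CCL27 and CCL28, rose from 2.12, 3.07 and 2.36 to 6.93, 6.41 and 5.81 CPM (log2 fold change 1.35 ± 0.15, adjusted p = 1.20e-05, edgeR). CD69, a lectin that binds S1PR1 and withdraws it from the cell surface, fell from 0.793, 0.797 and 1.20 to 0.323, 0.198 and 0.330 CPM (log2 fold change -1.72 ± 0.33, adjusted p = 0.00124, edgeR). CD69 in SUDHL16 stood at 0.22, 0.689 and 0 CPM in parental and 2.54, 1.18 and 1.79 CPM in resistant cells, not overlapping but not called (8.32-fold, log2 fold change 3.06 ± 1.25, adjusted p = 0.228, edgeR). Without CE-26 the difference was 15.4-fold (3.94 ± 1.12, adjusted p = 0.0637) and not called either. CCR10 in SUDHL16 stood at 0.606, 0 (CE-26) and 0.745 CPM in parental and 2.61, 1.32 and 1.57 CPM in resistant cells. These groups did not overlap, and CCR10 was not called (log2 fold change 1.80 ± 0.92, adjusted p = 0.337, edgeR), nor without CE-26 (1.44 ± 0.69, adjusted p = 0.254). Of 9 receptors tested in SUDHL16, ACKR3 was called. This scavenger of CXCL12 rose from 0.827, 2.07 and 1.55 to 16.7, 21.4 and 37.6 CPM (log2 fold change 4.20 ± 0.51, adjusted p = 0.00308, edgeR, and 4.42 ± 0.52 without CE-26), in the line whose CXCR4 was near 0. ACKR3 had no count in parental SUDHL6 and 2, 11 and 6 counts in resistant SUDHL6. P2RY8, the other receptor that signals through GNA13, stood at 142.5, 143.2 and 142.2 CPM in parental and 163.2, 166.3 and 164.3 CPM in resistant SUDHL6, a change under the fold limit (log2 fold change 0.21 ± 0.02, adjusted p = 9.45e-06, edgeR). In SUDHL16 it stood at 369.2, 183.6 (CE-26) and 374.9 CPM in parental and 531.4, 623.2 and 485.9 CPM in resistant cells, and was not called (log2 fold change 0.82 ± 0.34, adjusted p = 0.232, edgeR), nor without CE-26 (0.57 ± 0.21, adjusted p = 0.151).

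ARHGEF1, the exchange factor downstream of GNA13, stood at 250.1, 246.7 and 250.4 CPM in parental and 281.2, 269.8 and 270.2 CPM in resistant SUDHL6, again under the fold limit (log2 fold change 0.14 ± 0.02, adjusted p = 3.30e-04, edgeR). Its SUDHL16 levels of 193.9, 190.8 and 217.8 CPM in parental and 272.2, 173.1 and 188.3 CPM in resistant cells overlapped (log2 fold change 0.07 ± 0.27, adjusted p = 0.919, edgeR, and 0.05 ± 0.26 without CE-26).

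Of 10 desensitisation genes, 9 were tested in each line. RGS16, which shortens signalling by inhibitory G proteins, was called in SUDHL16 and rose from 5.35, 5.17 and 4.28 to 37.2, 41.6 and 65.5 CPM (log2 fold change 3.29 ± 0.32, adjusted p = 0.00113, edgeR, and 3.33 ± 0.34 without CE-26). In SUDHL6 RGS16 was lower and under the fold limit (log2 fold change -0.35 ± 0.05, adjusted p = 2.73e-04, edgeR). RGS1, a related regulator of chemokine responses in B cells, stood at 8.93, 15.1 and 5.77 CPM in parental and 8.78, 51.4 and 36.1 CPM in resistant SUDHL16, with overlap and no call (log2 fold change 1.74 ± 0.63, adjusted p = 0.171, edgeR, and 2.13 ± 0.65, adjusted p = 0.0798, without CE-26). In SUDHL6 its log2 fold change was -0.17 ± 0.10 (adjusted p = 0.242, edgeR).

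Of 4 transcription factors, HIF1A, the oxygen-regulated factor, was called in SUDHL16, with 97.8, 92.3 and 80.5 CPM in parental and 153.7, 235.9 and 314.6 CPM in resistant cells (log2 fold change 1.38 ± 0.31, adjusted p = 0.0391, edgeR, and 1.40 ± 0.32 without CE-26). The call was lost when either parental library other than CE-26, or resistant replicate 2 or 3, was left out (adjusted p of 0.109 to 0.148). Of 10 other processing settings with all libraries, 7 called HIF1A in SUDHL16. In SUDHL6 the HIF1A levels were 148.0 to 154.1 CPM in parental and 145.5 to 147.9 CPM in resistant cells (log2 fold change -0.04 ± 0.02, adjusted p = 0.168, edgeR). KLF2, which drives S1PR1 transcription, was too low to be tested in SUDHL6, with at most 20 counts in a library. In SUDHL16 it stood at 0.772, 3.10 (CE-26) and 0.372 CPM in parental and 2.41, 0.659 and 1.87 CPM in resistant cells, with overlap (log2 fold change 0.37 ± 0.98, adjusted p = 0.888, edgeR), and without CE-26 the change was 1.52 ± 0.83 (adjusted p = 0.329).

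**Figure D4:**
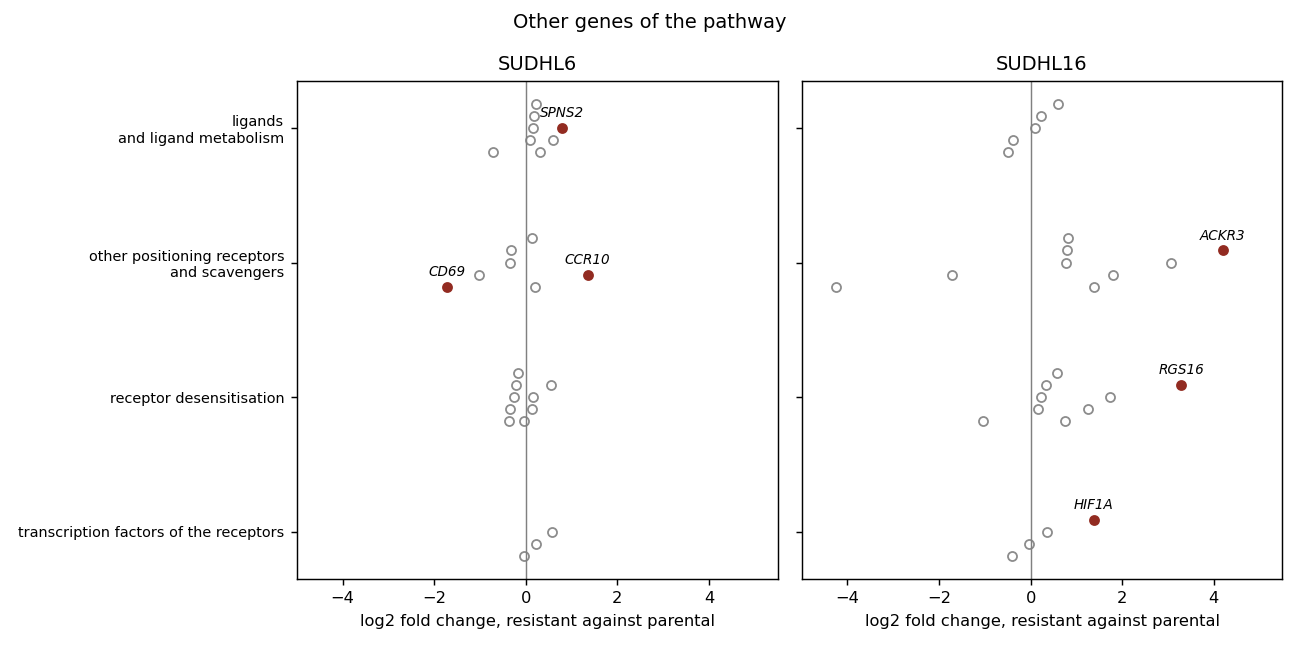
Log2 fold change, resistant against parental, of 27 of the 40 tested genes of the pathway list in each line, by class, with the signalling genes not drawn; filled and named points passed adjusted p under 0.05 and 1.5-fold. SPNS2 and CCR10 were higher and CD69 lower in SUDHL6, and ACKR3, RGS16 and HIF1A were higher in SUDHL16.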

How the data were processed

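Total RNA of 12 cell-line libraries was sequenced. Per the labels and the study's methods, the authors trimmed reads with Trim Galore and aligned them to GRCh38 with HISAT2, with StringTie also named; the deposited values are raw read counts per Ensembl gene, and the counting tool, annotation and strand setting are not given in the sources used here. Of 60675 identifiers, 93.2% matched GENCODE 44. Groups came from the labels' cell line; replicate numbers follow accession order and only name libraries.

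Each line was fitted alone in edgeR 4.0.16 (R 4.3.3): TMM scaling, filterByExpr, two-sided quasi-likelihood test, Benjamini-Hochberg adjustment, calls at adjusted p under 0.05 and 1.5-fold. The line difference was a contrast of 4 group means over 12 libraries. CPM are on the TMM scale. A count of 0 was taken to allow 3 counts, and 95% intervals of count ratios are exact conditional binomial; both cover counting error only. Alternatives were DESeq2 1.42.0, limma 3.58.1 voom and the settings named at the end. The fits were tested on simulated data. All 9 members and 6 called genes of the pathway list, with KLF2, CD69, ARHGEF1, P2RY8 and RGS1, are named, as is each annotated gene overlapping a member. Members and lists were chosen with earlier results of these data known. One B-lineage marker and the count for one class of the pathway list are not reported here.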

Additional observations from a re-analysis of the deposited data

Results flagged for a closer look

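Of the 9 genes and the named pathway genes, 5 passed the interaction test (edgeR, change in SUDHL16 minus change in SUDHL6, log2). The difference was 3.89 for CXCR5 (adjusted p = 3.03e-05), 2.62 for GPR18 (adjusted p = 0.0293), 4.86 for CD69 (adjusted p = 0.0328), 3.67 for RGS16 (adjusted p = 3.12e-05) and 1.47 for HIF1A (adjusted p = 0.0161). On the whole pathway list, 7 of 45 genes tested passed, where 7.16% of all genes tested did. LPAR5, GRK5, ARRB2 and RGS2 were among these 7, and BCL9L, which overlaps CXCR5, passed as well (adjusted p = 0.0255, edgeR). CXCR5 and RGS16 were higher in all 3 resistant libraries than in any parental library of SUDHL16 and lower in all 3 than in any parental library of SUDHL6. GPR18 was higher in resistant libraries in both lines, so its difference is one of size. The CD69 difference rests on at most 49 counts in a library and passed in only 2 of the 12 fits that left out 1 library. No group had enough libraries to be examined for single outlying values.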

How the results depend on the processing

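In SUDHL6, members called went from 4 to 2 (CCR7 and GPR18) with a test against 1.5-fold, and pathway genes called from 3 to 5 without the low-count filter or with voom. A single edgeR fit of all 12 libraries, where both lines share 1 estimate of the spread, gave 0 members (1 of 8 at an unadjusted p under 0.05) and 0 pathway genes (5 of 45) in SUDHL6. In SUDHL16 that single fit gave 12 pathway genes (14 of 45 at an adjusted p under 0.05). DESeq2 on SUDHL6 alone called 4 members and 3 pathway genes. Pathway genes called in SUDHL16 went from 3 to 7 with DESeq2, 5 with the exact test and 12 with voom. With each library left out in turn, 3 to 4 members were called for SUDHL6 and 1 to 2 for SUDHL16, 4 to 6 pathway genes for SUDHL6 (6 without parental replicate 2 or resistant replicate 3) and 2 to 3 for SUDHL16, and 1 to 4 members differed between the lines, the highest without CE-26. Members differing fell to 1 (CXCR5) with upper-quartile scaling. CXCR5 was called in SUDHL16 in all 16 alternatives. Signs turned only for changes that passed no test: for SUDHL16, S1PR2 was 0.037 with library totals and 0.023 without the filter (leaving out libraries -0.25 to 0.044), GNA13 was -0.028 with upper-quartile scaling and -0.11 with voom (-0.23 to 0.31), ARHGEF1 was -0.023 with upper-quartile scaling (-0.13 to 0.20), and KLF2 ranged from -0.12 to 1.52; the difference of GNA13 between the lines was -0.0006 with DESeq2, -0.068 with upper-quartile scaling, -0.14 with voom and -0.0021 with protein-coding genes (-0.19 to 0.38). The causes were not tested. Ratios of summed counts without CE-26 were added after seeing the data. Other alternatives kept each of these counts within 1.5 times its value. No paired analysis was possible because the labels give no replicate numbers. Low counts limit S1PR1, S1PR4, GPR183 and CCR7. The libraries of 1 group varied far more in SUDHL16 (biological coefficient 0.468, from the fit that includes CE-26) than in SUDHL6 (0.0516).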
